A study of Mus musculus with 8 samples.

Results

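Collagens are the main structural proteins of the arterial wall. Each molecule is built from 3 α chains that wind into a triple helix, and most collagen types need chains from more than 1 gene: type I is made from the Col1a1 and Col1a2 products, type IV of basement membranes from pairs of neighbouring genes (such as Col4a1 with Col4a2, and Col4a5 with Col4a6), and type VI beaded filaments from Col6a1, Col6a2 and a further chain. Smooth muscle cells make much of the collagen of the aortic media, and they are surrounded by a basement membrane of their own. The genes described here are all those whose symbol on the array names a collagen α chain (Col, a type number, a and a chain number). They number 36 of the 18138 symbols on the array and were read by 58 of its 25697 probes.

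The cells were primary mouse aortic smooth muscle cells, grown out of explanted pieces of several aortas whose adventitia had been removed. They were first cultured on plates coated with collagen, which all samples share. The methods name wild type mice of the C57/Bl6 strain, and the labels give neither age nor strain for the aorta donors. One group was transfected with a scrambled control oligonucleotide and the other with a mimetic of moR-21, both at 5 nM with RNAiMAX, and total RNA was taken after 48 h and hybridized to Illumina mouse expression BeadChips. Each group had 3 samples. The titles name a replicate A and a replicate B for control sample 1 and for moR-21 sample 3, which makes 8 arrays in all. A and B were read as repeat arrays of 1 sample. A source field names smooth muscle cells, while the description field of the same samples names AoECs. The median deposited intensity of the arrays was between 102 and 109, and between 10285 and 10512 probes per array were detected. A probe is called detected where its deposited detection p-value, which compares it with the negative control beads of the array, was under 0.01.

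The cell type was checked against marker genes. Acta2, the smooth muscle actin, was detected on all 8 arrays, but Myh11, Cnn1, Myocd and Synpo2 of the 10 smooth muscle markers were not detected on any array. Tagln was detected on 4 of the 8 arrays, with a mean of 6.74 in the control samples and 6.94 in the moR-21 samples, and Lmod1 on 3. Of 10 endothelial markers, Vwf and Flt1 were detected, and Pecam1, Cdh5, Kdr, Tek and Tie1, which define that cell type, were not. The normalized intensities summed over the probes of the smooth muscle list were between 14253 and 14374 in the control samples and between 18602 and 19685 in the moR-21 samples. This sum mostly follows Acta2, which has 4 probes in it. The brightest Acta2 probe had a mean log2 signal of 13.18 in the control samples and 13.58 in the moR-21 samples. The next brightest gene, Smtn, had 8.73 and 8.68. Summed intensities of the endothelial list were between 1425 and 1470 and between 1427 and 1465. Every sum here takes in all probes of its list, also those not detected on any array, and background stays in it. Only 2 of the 12 endothelial probes and 3 of the 14 macrophage probes were detected on any array. The like endothelial sums therefore say little about endothelial RNA. Mesothelial markers (2 of 5 on the array detected, Upk3b and Krt19, with Msln, Lrrn4 and Krt7 not detected) summed to between 1746.5 and 1852 in the control samples and between 1050.4 and 1080 in the moR-21 samples. Macrophage markers (3 of 8 detected, with Ptprc, Cd68, Emr1, Aif1 and Itgam not detected) summed to between 1696 and 1741 and between 1925 and 1993. Adventitial fibroblast markers (5 of 7 detected, with Pi16 on 4 of the 8 arrays) summed to between 3490 and 3739 and between 3135 and 3337. Marker sums of 4 of these 5 lists thus lay apart between the treatments, and their part in the collagen values below was not tested. The mesothelial difference rests mainly on Upk3b, which has 3 probes in that sum. The macrophage difference rests mainly on Lyz and Lyz2, while Csf1r had means of 6.87 and 6.85. Within the adventitial sum Ly6a was lower and Thy1 higher in the moR-21 samples. In such bulk samples, fewer cells of a type and less RNA per cell cannot be told apart.

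MoR-21 is a small RNA cut from the primary transcript of miR-21, next to miR-21 on its 5′ side. The sequence of the miR-21a hairpin is shown because moR-21 lies beside miR-21 in the primary transcript. The transfected RNA was a synthetic mimetic, and the exact bases of moR-21 are not marked here. RefSeq places this hairpin of 92 bases on the minus strand of chromosome 11 at chr11:86584067-86584158 of GRCm38.p6. The capitals mark the 17 bases of the annotated hairpin that precede miR-21a-5p, and everything after them is in lower case.
Mir21a hairpin: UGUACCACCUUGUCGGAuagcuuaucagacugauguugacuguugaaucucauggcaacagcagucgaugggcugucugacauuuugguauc

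Detection on the array was used to ask which of the chains the cells transcribed. Of the 36 collagen genes, 18 were detected on at least 1 array and 14 on all 8 arrays. Of all 18138 genes on the array, 8727 were detected on at least 1 array, so the collagen share is near that of the whole array. The 14 were the fibrillar chains Col1a1, Col1a2, Col3a1, Col5a1 and Col5a2, the basement membrane chains Col4a1, Col4a2, Col4a5 and Col4a6, both type VI chains on the array (Col6a1 and Col6a2), the fibril-associated Col16a1, the endostatin precursor Col18a1, and Col7a1, which forms anchoring fibrils in skin. Col5a3, Col9a1, Col12a1 and Col14a1 were detected on 1 to 4 of the 8 arrays. Detection on 1 array alone, as for Col9a1 and Col14a1, does not show that a chain was transcribed. The 18 genes not detected on any array included the cartilage chains Col2a1, Col9a2, Col9a3, Col10a1, Col11a1 and Col11a2, the kidney and lung basement membrane chains Col4a3 and Col4a4, and all 4 transmembrane chains, Col13a1, Col17a1, Col23a1 and Col25a1. The others were Col8a2, Col15a1, Col19a1, Col24a1, Col27a1 and Col28a1.

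**Figure D1:**
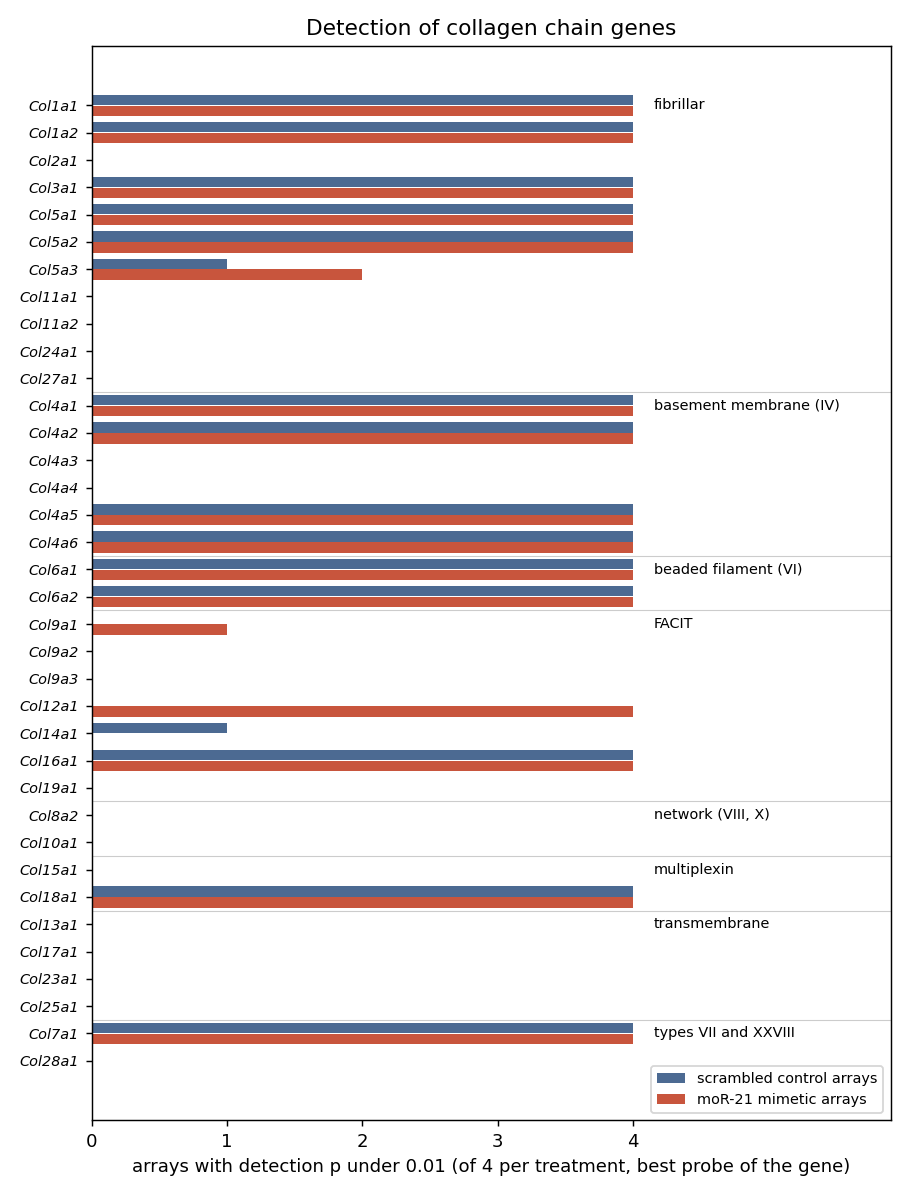
Number of arrays, of 4 per treatment, on which the best probe of each of the 36 collagen genes had a detection p-value under 0.01, with genes grouped by collagen class. Most genes have either full bars in both treatments (blue, control; red, moR-21) or no bar, and Col12a1 has 4 moR-21 arrays and 0 control arrays.

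The genes without a detected probe are not shown to be silent, since 35 collagen probes only failed to stand out from the negative control beads. Their deposited intensities were between 89.1 and 114. With a looser detection p-value under 0.05, 22 of the 36 genes were detected. The Col6a3, Col6a4, Col6a5, Col6a6, Col8a1, Col20a1 and Col22a1 chains were not analysed here.

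The moR-21 mimetic was compared with the scrambled control on the log2 scale after quantile normalization, and each difference below is the mean of the moR-21 samples minus that of the control samples, with a 95% confidence interval. A probe was called where limma gave a Benjamini-Hochberg adjusted p under 0.002 over all 11651 tested probes and the fold change was over 1.3, which is 0.379 on the log2 scale. Of the 23 tested collagen probes, 8 were called lower, from 7 of the 18 tested genes, and 0 were called higher by limma. Over all tested probes 448 were called lower, or 3.85%, and 363 higher, or 3.12%, so that 6.96% were called either way. For collagen the share called lower was 34.8%. At an unadjusted p under 0.05, 10 collagen probes were lower and 2 were higher. Of all 11651 tested probes, 2310 were lower and 2610 higher at that cutoff. The higher collagen probes were those of Col7a1 and Col12a1, and the Col12a1 probe was detected on moR-21 arrays alone. The median difference of the 23 probes was −0.08, and that of all tested probes was 0.00.

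**Figure D2:**
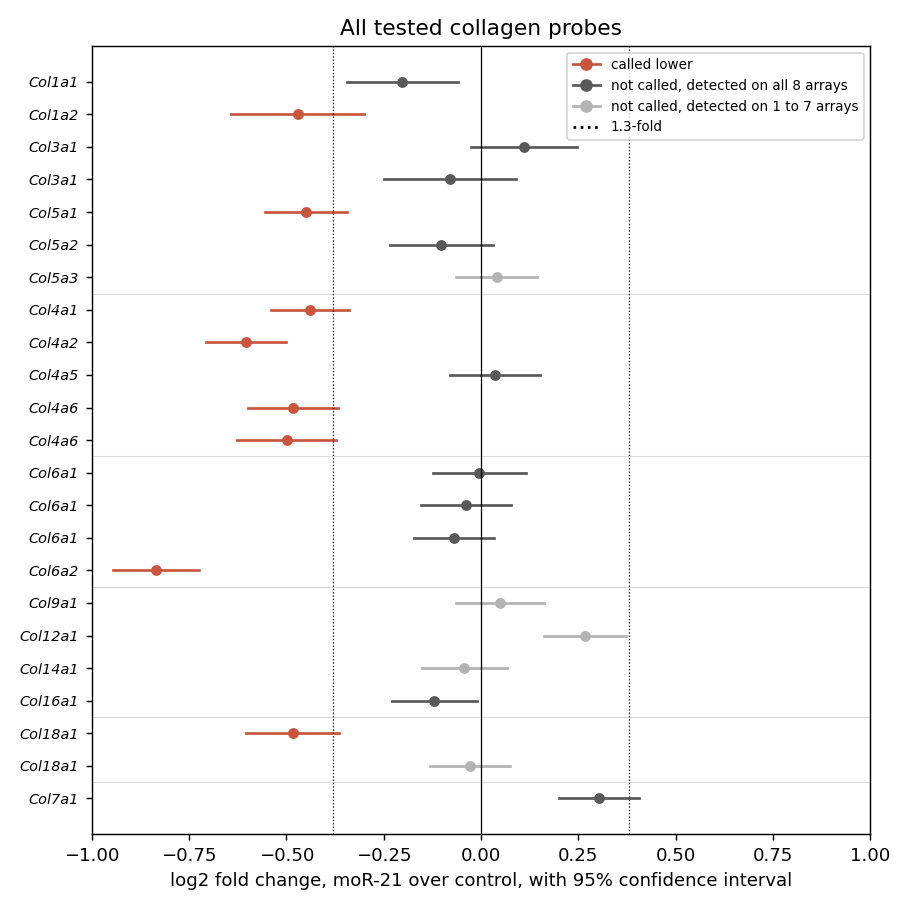
Log2 fold change of moR-21 over control for all 23 tested collagen probes, with the 95% confidence interval of limma as a line, ordered by collagen class (grey rules) with 1 row per probe. The 8 called probes (red) lie between −0.83 and −0.44, left of the dotted line at 1.3-fold, and the other 15 lie between −0.20 and 0.30.

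The samples of the 2 groups did not overlap in 12 of the 23 probes. In 10 of them all moR-21 samples lay below all control samples, where 21.2% of all tested probes did so, and in 2 they all lay above, where 23.7% did so. The 8 called probes are among the 10, and the other probes below were those of Col1a1 and Col16a1.

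The difference was largest in Col6a2, which encodes the α2 chain of type VI collagen. Its log2 signal was 10.26, 10.39 and 10.34 in the control samples and 9.45, 9.57 and 9.46 in the moR-21 samples. The groups lay far apart, and Col6a2 fell by 0.83 (95% interval −0.95 to −0.72, limma adjusted p = 3.69e-08), so that its signal after moR-21 was 56.1% of control. Its partner Col6a1 was not called at any of its 3 probes. The brightest of these read 12.98, 12.85 and 12.92 in the control samples and 12.99, 12.82 and 12.93 in the moR-21 samples, with full overlap and a difference of −0.00 (95% interval −0.12 to 0.11), whose sign was positive under median scaling and cyclic loess. Another Col6a1 probe read 12.61, 12.66 and 12.47 against 12.51, 12.55 and 12.56, and differed by −0.04 (−0.15 to 0.08). The dimmest read 8.24, 8.27 and 8.30 against 8.15, 8.27 and 8.19, and differed by −0.07 (−0.17 to 0.03), so that the groups overlapped at every Col6a1 probe. The intervals of all 3 probes exclude a fall as large as that of Col6a2.

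In type IV collagen 3 of the 4 detected genes were lower. Col4a1 and Col4a2 encode the chains of the type IV collagen found in nearly all basement membranes. The Col4a2 signal was 10.31, 10.33 and 10.34 in the control samples and 9.77, 9.76 and 9.65 in the moR-21 samples. That of Col4a1 was 10.40, 10.34 and 10.37 against 9.98, 9.89 and 9.92. The samples within each group lay close together for both genes, and Col4a2 fell by 0.60 (95% interval −0.71 to −0.50, limma adjusted p = 4.30e-07) and Col4a1 by 0.44 (−0.54 to −0.34, limma adjusted p = 6.59e-06).

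Col4a6, a chain that smooth muscle basement membranes use together with Col4a5, had 3 probes. Of these, 2 were tested, and the other was not detected on any array. The brighter tested probe read 9.025, 8.902 and 8.995 in the control samples and 8.567, 8.404 and 8.500 in the moR-21 samples. The dimmer read 8.40, 8.26 and 8.49 against 7.84, 7.85 and 7.96. Neither tested probe's groups overlapped, and the falls were alike, 0.48 (−0.60 to −0.37, limma adjusted p = 1.13e-05) and 0.50 (−0.63 to −0.37, limma adjusted p = 1.99e-05). Col4a5 read 10.33, 10.16 and 10.31 in the control samples and 10.36, 10.27 and 10.29 in the moR-21 samples. Its groups overlapped, and the difference was 0.04 (−0.08 to 0.15, limma adjusted p = 0.668). Of the 5 tested type IV probes, 4 were thus called lower.

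Among fibrillar chains, 2 of 7 tested probes were called lower. Col5a1 encodes a chain of type V collagen, which sits inside type I fibrils and sets where they start. Its signal was 11.30, 11.33 and 11.36 in the control samples and 10.81, 10.89 and 10.94 in the moR-21 samples. The groups were well separated, and Col5a1 fell by 0.45 (−0.55 to −0.34, limma adjusted p = 8.78e-06). Its partner Col5a2 read 7.17, 7.02 and 7.07 against 6.85, 7.08 and 7.02, which overlapped, with a difference of −0.10 (−0.23 to 0.03, limma adjusted p = 0.234). This Col5a2 probe was close to background, and its difference was −0.29 with normexp background correction (limma adjusted p = 0.23) and −0.035 without moR-21 sample 1, neither of which was called. Col5a3 was near background, with a difference of 0.04 (−0.06 to 0.14).

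Col1a2, the α2 chain of type I collagen, read 8.87, 8.83 and 9.18 in the control samples and 8.38, 8.55 and 8.54 in the moR-21 samples. The groups did not overlap, but control sample 3 stood above the other controls. Col1a2 fell by 0.47 (−0.64 to −0.30, limma adjusted p = 3.78e-04), and without control sample 3 the difference was −0.36, under the 1.3-fold cutoff. Its call was also lost without moR-21 sample 1, where the difference was −0.42 (limma adjusted p = 0.00256), and under normexp background correction, median scaling and no detection filter. Col1a1, the other type I chain, read 11.31, 11.59 and 11.40 in the control samples and 11.25, 11.30 and 11.15 in the moR-21 samples. All moR-21 samples lay below the controls, by margins small beside the spread of the controls, and the difference of −0.20 (−0.34 to −0.06, limma adjusted p = 0.0293) was not called. The 2 probes of Col3a1, the type III chain, abundant in vessel walls, differed in sign, at −0.08 (−0.25 to 0.09) and 0.11 (−0.03 to 0.25), and neither was called.

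Col18a1, a basement membrane collagen whose C-terminal fragment is endostatin, was called lower at 1 of its 2 tested probes. That probe read 9.17, 9.25 and 9.15 in the control samples and 8.63, 8.67 and 8.82 in the moR-21 samples. Its groups did not overlap, and it fell by 0.48 (−0.60 to −0.37, limma adjusted p = 1.37e-05). The other probe was near background and detected on 3 of 8 arrays. It read 6.86, 6.73 and 6.79 against 6.74, 6.76 and 6.79, which overlapped, and differed by −0.03 (−0.13 to 0.07).

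**Figure D3:**
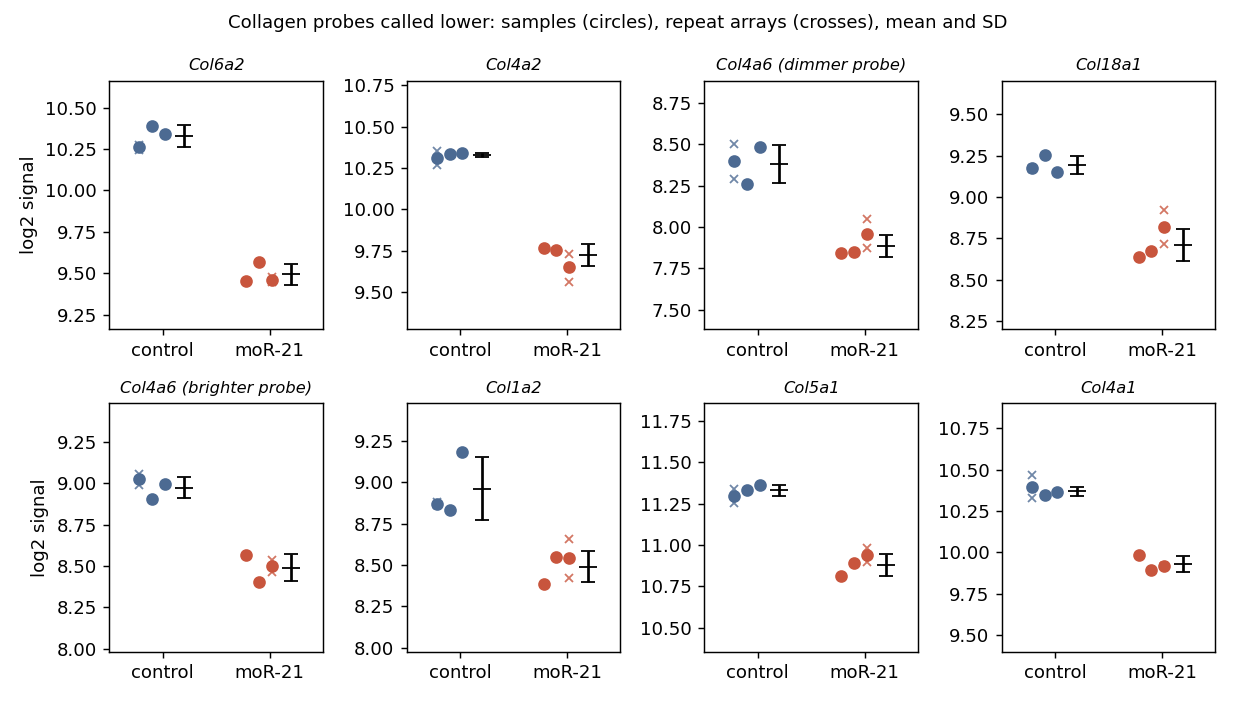
Log2 signal of the 8 collagen probes called lower, ordered by fold change, in the 3 control samples (blue) and the 3 moR-21 samples (red). Circles are samples, crosses are the repeat arrays of control sample 1 and moR-21 sample 3, the black bar is the mean with its SD (n = 3), and every panel spans the same height. The red circles lie below the blue ones in all panels, and the repeat arrays of a sample differ by at most 0.24.

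Repeat arrays give a measure of technical spread. Over the 23 tested collagen probes the median size of the difference between a sample's repeat arrays was 0.07, and the largest was 0.24, in a probe of Col3a1.

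Col7a1 and Col12a1 stood on the other side. Col7a1 had 2 probes, of which 1 was not detected on any array. The tested Col7a1 probe read 7.20, 7.17 and 7.17 in the control samples and 7.52, 7.53 and 7.41 in the moR-21 samples. All moR-21 samples lay above the controls, with a difference of 0.30 (0.20 to 0.41, limma adjusted p = 2.20e-04) that is under the 1.3-fold cutoff. Col12a1, a fibril-associated collagen, read 6.81, 6.76 and 6.80 against 7.09, 6.97 and 7.10. It was not detected on any control array and was detected on all 4 moR-21 arrays, so it entered the test through the moR-21 arrays alone. Only a bound can be given for it, at least 1.17-fold higher after moR-21 (fitted difference 0.27, not called). The bound sets the moR-21 mean of 7.05 against 6.83, the mean over control samples of the lowest detected signal of an array. The tested probes of both genes are close to background, which holds log2 differences of dim probes near 0. With normexp background correction Col7a1 differed by 0.63 and was called higher (limma adjusted p = 0.000666). Col12a1 then differed by 0.84 and passed the same cutoffs. That call is not used as support, because the probe entered the test through the moR-21 arrays alone.

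Of the remaining chains, Col16a1 was well detected and differed by −0.12 (−0.23 to −0.01, limma adjusted p = 0.0904), with all moR-21 samples below the controls. Col9a1 and Col14a1 were each detected on 1 array, and nothing is read from their differences because both groups lay at background.

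Since chains of 1 collagen type are assembled together, the treatments were also compared by the difference between the log2 signals of 2 partner chains within each sample. The levels of different probes were not compared, only how that difference changed. It changed by −0.83 for Col6a2 minus Col6a1, by −0.52 for Col4a6 minus Col4a5, by −0.35 for Col5a1 minus Col5a2, and by −0.17 for Col4a2 minus Col4a1. In these 4 pairs the 3 moR-21 samples lay below the 3 control samples, with an exact two-sided permutation p = 0.1, the smallest that 3 against 3 samples can give, and 0.125 after adjustment over the 5 pairs. For Col1a2 minus Col1a1 the change was −0.27, the samples overlapped, and the exact two-sided permutation p was 0.3. This change was −0.14 without control sample 3 and −0.41 without control sample 2. With normexp background correction the type V change was −0.18 and the Col4a6 to Col4a5 change was −0.64.

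**Figure D4:**
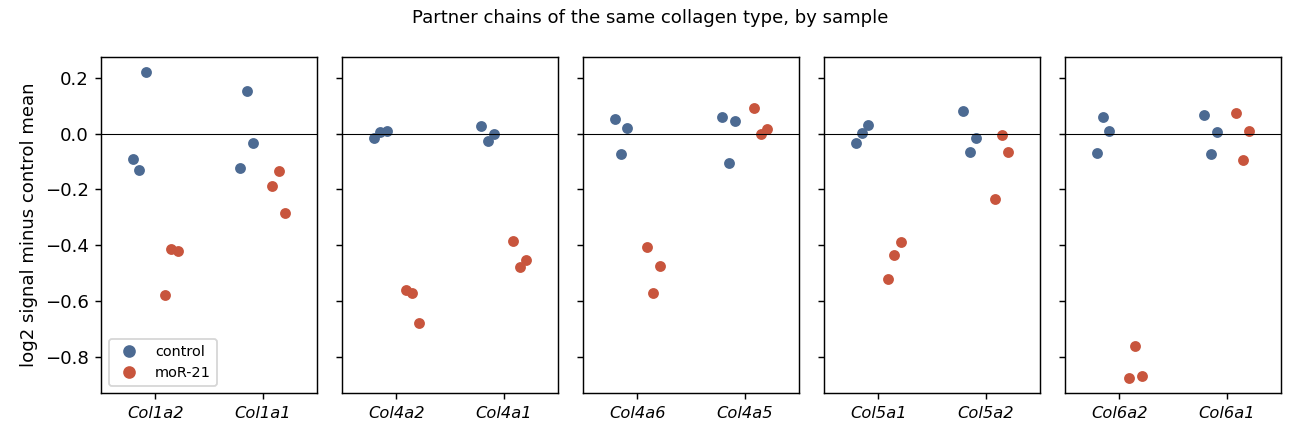
Log2 signal minus the mean of the control samples for the partner chains of 5 collagen types or pairs, at each gene's brightest detected probe, with 1 circle per sample (blue, control; red, moR-21). In the type VI, Col4a5 to Col4a6 and type V panels the left chain is shifted down and the right chain overlaps its controls, while both Col4a1 and Col4a2 are shifted.

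The positions of these genes put the partner chains into different arrangements in the GRCm38.p6 annotation of RefSeq. Col4a1 and Col4a2 lie head to head on chromosome 8, with Col4a1 on the minus strand at chr8:11198423-11312889 and Col4a2 on the plus strand at chr8:11312805-11449287. Both fell. Col4a6 (minus strand, chrX:141165403-141474095) and Col4a5 (plus strand, chrX:141475370-141689236) are also head to head, with 1274 bases between their outermost starts, and of these Col4a6 alone was called. Col6a2 (chr10:76595756-76623630) and Col6a1 (chr10:76708792-76726044) are both on the minus strand, 85161 bases apart, and of these Col6a2 alone was called. Col5a1 lies at chr2:27886381-28039510 and Col1a2 at chr6:4505618-4541543, both on the plus strand, and Col18a1 at chr10:77052178-77166530 on the minus strand. All 36 symbols were current in that annotation, and 29 had a promoter window there.

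The gene records of Col4a1 and Col4a2 overlap by 85 bases. A stretch of 22 bases of this overlap is shown because it lies between the annotated start of Col4a2 and a start of Col4a1 that the RefSeq promoter window uses, which is inside the outermost end of the Col4a1 record. It lies at chr8:11312805-11312826 and is written along the plus strand, in the direction of Col4a2. No motif is capitalized in it, although it contains GGGCGG, a motif taken up below. The stretch lies outside the upstream windows in which motifs are counted below.
Col4a2 and Col4a1 overlap: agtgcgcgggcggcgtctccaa

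The 100 bases just upstream of the outermost annotated start are shown for the other called genes and for the partner chains Col6a1 and Col4a5, so that chains that fell can be read beside chains that were not called. Each is written 5′ to 3′ on the strand of its gene. Capitals mark the CCAAT motif, the GC box GGGCGG and the TATA box TATAAA on either strand wherever they occur, and no marked motif overlaps another in these windows.
Col6a2, chr10:76623631-76623730, minus strand: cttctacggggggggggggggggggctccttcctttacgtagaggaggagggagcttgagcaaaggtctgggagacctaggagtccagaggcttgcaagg
Col6a1, chr10:76726045-76726144, minus strand: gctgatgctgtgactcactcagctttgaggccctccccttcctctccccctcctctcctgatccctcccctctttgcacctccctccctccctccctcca
Col4a6, chrX:141474096-141474195, minus strand: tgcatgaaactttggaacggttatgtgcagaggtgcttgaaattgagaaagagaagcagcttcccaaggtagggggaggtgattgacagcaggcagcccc
Col4a5, chrX:141475270-141475369, plus strand: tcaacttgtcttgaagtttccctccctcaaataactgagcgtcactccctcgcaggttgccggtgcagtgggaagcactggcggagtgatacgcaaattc
Col5a1, chr2:27886281-27886380, plus strand: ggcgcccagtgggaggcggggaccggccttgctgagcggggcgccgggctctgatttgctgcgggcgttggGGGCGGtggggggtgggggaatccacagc
Col18a1, chr10:77166531-77166630, minus strand: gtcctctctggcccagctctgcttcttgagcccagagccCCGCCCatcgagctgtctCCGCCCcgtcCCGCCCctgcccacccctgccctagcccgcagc
Col1a2, chr6:4505518-4505617, plus strand: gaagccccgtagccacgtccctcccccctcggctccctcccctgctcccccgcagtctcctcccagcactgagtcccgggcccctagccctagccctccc

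The windows of the called genes did not share 1 of these motifs. GGGCGG was found in the windows of 3 of the 7 called genes (Col18a1, where it occurs 3 times, Col5a1 and Col4a2) and in 24.4% of the 27025 windows of all genes. CCAAT was found in 2 of the 7 (Col4a1 and Col4a2), and in 19.5% of all windows. TATAAA was in 0 of the 7 and in 5.85% of all windows. Among all 14 tested collagen genes with a window, CCAAT was in 4 and GGGCGG in 5. In base composition the windows of called genes ranged from 51% G and C in Col4a6 to 76% in Col5a1.

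Genes that modify, process and bind collagen were read from 5 lists, of 20, 8, 11, 19 and 10 genes in the order below, at each gene's brightest detected probe. Of these genes 18, 7, 11, 15 and 8 were on the array. Of all 8727 tested genes read in this way, 382 were called lower and 298 higher. Of 14 tested genes for modification and folding of the chains, 2 were called lower and 1 higher, and their median difference was −0.16. Plod2, the lysyl hydroxylase of collagen telopeptides, fell by 0.64 (SE 0.050, limma adjusted p = 3.70e-07), from 9.648, 9.671 and 9.663 in the control samples to 9.107, 8.945 and 8.998 in the moR-21 samples. Serpinh1, the collagen chaperone of the endoplasmic reticulum, fell by 0.41 (SE 0.054, limma adjusted p = 4.98e-05), from 8.404, 8.415 and 8.496 to 7.996, 8.133 and 7.966. Plod1, the lysyl hydroxylase of the helix, rose by 0.39 (SE 0.054, limma adjusted p = 7.41e-05), from 7.11, 7.13 and 7.04 to 7.52, 7.55 and 7.38. The Plod1 difference is just past the 1.3-fold cutoff and the call was lost without control sample 3, without moR-21 sample 1 or without moR-21 sample 2. The prolyl hydroxylase subunit P4ha2 had a difference of 0.32, and Crtap and Fkbp10 had differences of −0.33 and −0.30, all under the fold cutoff.

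Of 4 tested genes for propeptide processing, Bmp1, the procollagen C-proteinase, was called lower. Its signal went from 11.45, 11.33 and 11.27 to 11.01, 10.73 and 10.85, a difference of −0.49 (SE 0.068, limma adjusted p = 8.42e-05). Among its 4 probes, the other differences were −0.42, which was called, and −0.32 and −0.03, which were not. The median of the 4 genes was −0.21. Of 7 tested fibril-associated small proteoglycans 2 were called lower, with a list median of −0.22. Ogn, osteoglycin, fell by 0.69 (SE 0.077, limma adjusted p = 1.09e-05) at its brightest probe, from 11.39, 11.02 and 11.23 to 10.54, 10.43 and 10.60, while dimmer probes differed by −0.15 and −0.19 and were not called. Lum, lumican, fell by 0.56 (SE 0.053, limma adjusted p = 2.21e-06), from 11.37, 11.36 and 11.42 to 10.91, 10.73 and 10.83. Decorin (Dcn) and biglycan (Bgn), the most studied members of the family, had differences of −0.22 and −0.07 and were not called.

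Among 8 tested partners of collagen in basement membranes, 1 was called lower, and the list median was −0.13. It was Sparc, a collagen-binding glycoprotein, which read 12.82, 12.78 and 12.96 in the control samples and 11.50, 11.37 and 11.41 in the moR-21 samples. This is a difference of −1.43 (SE 0.056, limma adjusted p = 4.26e-10), and a dimmer Sparc probe differed by −1.53. The laminin chain Lamc1 and nidogen (Nid1) had differences of −0.32 and −0.29, under the fold cutoff, while perlecan (Hspg2) and Nid2 were at −0.05 and −0.02. Of 6 tested collagen receptors Itga11, a subunit of a collagen-binding integrin, was called lower, with a difference of −0.43 (SE 0.063, limma adjusted p = 1.07e-04). Its samples went from 8.50, 8.60 and 8.50 to 8.04, 8.01 and 8.25, and its dimmer probe differed by −0.17 and was not called. The median of the receptor list was 0.04, with the collagen receptors Ddr1 and Ddr2 at −0.28 and 0.14.

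**Figure D5:**
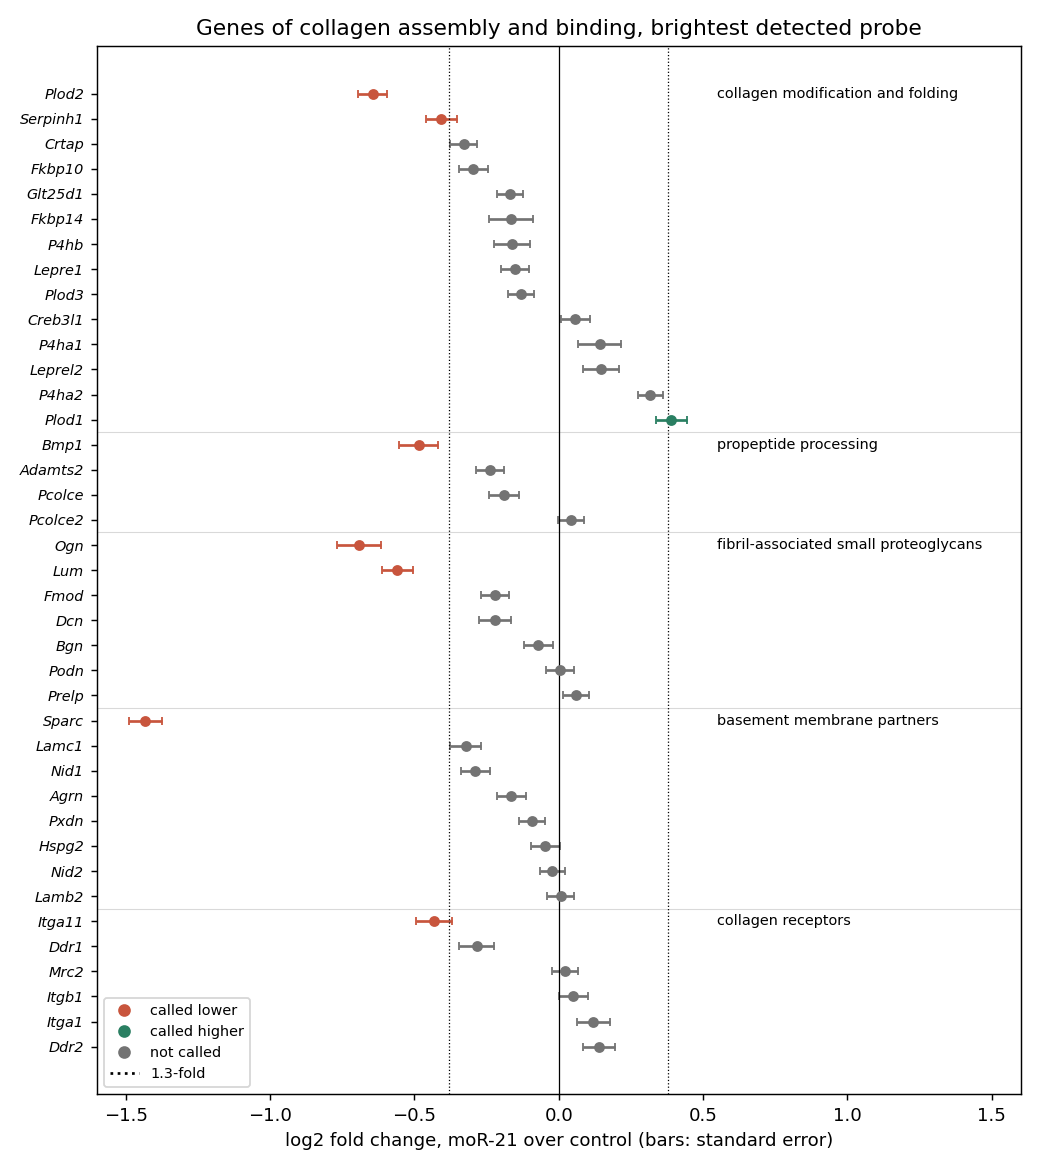
Log2 fold change of moR-21 over control for the tested genes of 5 lists of collagen modification, processing and binding, at the brightest detected probe, with the standard error as a bar. Red points are called lower, the green point (Plod1) is called higher, grey points are not called, and dotted lines mark 1.3-fold. Sparc stands apart from all the others at −1.43.

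Single markers of the cell types also differed. In the smooth muscle list 3 of the 6 tested genes were higher and 3 lower, with a median difference of 0.02. Of the higher genes, Tagln was detected on 4 arrays and Lmod1 on 3. Their control means, 6.74 and 6.79, lay below 6.83, the mean over control samples of the lowest detected signal of an array. With these genes at background in the controls, the count and the median do not settle a direction of the list. The 4 Acta2 probes in it rose by 0.40 to 0.81, the macrophage markers Lyz2 and Lyz by 0.48 and 0.58, and the adventitial marker Thy1 by 0.53. The smooth muscle marker Des had a difference of −0.38 (limma adjusted p = 8.60e-05), just under the fold cutoff, with all moR-21 samples below the controls, while Smtn and Cald1 were at −0.05 and −0.00. The mesothelial marker Upk3b had a difference of −1.24 and the adventitial marker Ly6a of −1.24, and both were called lower. Pdgfra, another adventitial marker, had a difference of −0.17 and was not called.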

How the data were processed

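The collagen genes and the gene lists were chosen with earlier results of these data known. The authors deposited non-normalized Illumina probe intensities of 8 arrays, with no background correction stated, and the deposited detection p-values; the submitters' processing notes name lumi. All 8 arrays were quantile normalized and log2 transformed with limma 3.58.1 (R 4.3.3), and arrays of the same sample were averaged. limma (lmFit and eBayes, no covariate) was fitted over probes that 1 array or more detected (p-value under 0.01), with the fold and adjusted p cutoffs that the study used. Nothing says that the 3 samples of a group came from separate cultures, so p-values measure only the spread between these samples, which may be technical. Per-sample values are given for every collagen gene with a called probe, its probes and partner chains, and of each other list for the called genes, at most 4 by size of change. Background stays in the signal, which makes changes of dim probes smaller. No depth applies to arrays, and the number of samples limits precision. The fit was tested on simulated data with the same spread for all probes, which checks the code and not the calls given here. Sequences and positions are from RefSeq (GRCm38.p6), read with Python 3.11.15. Alternatives were normexp (offset 16), median scaling, cyclic loess, other detection filters, array A or B alone, all arrays with a random block, eBayes with trend, the replicate block, each sample left out, an adjusted p under 0.05 and a fold over 1.5.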

Additional observations from a re-analysis of the deposited data

How the results depend on the processing

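The count of 8 collagen probes called lower stayed within 1.5 times under all alternatives run but a fold change over 1.5, which left 2 lower and, of the other collagen pathway genes, 3 lower and 0 higher. Normexp background correction called 2 collagen probes higher, those of Col7a1 and Col12a1, of which Col12a1 entered the test through moR-21 arrays alone. The collagen median was −0.16 over probes detected on all 8 arrays and −0.0079 without a detection filter. The pathway genes called higher went from 1 to 0 with array B alone and with all 8 arrays and the sample as a random block. With each sample left out in turn, 7 to 8 collagen probes were called lower, the collagen median was −0.12 to −0.04, and 6 to 7 pathway genes were called lower and 0 to 1 higher. With the replicate number as a block, 8 collagen probes were called lower and 0 higher; correlations of same-numbered samples' deviations were 0.19, 0.04 and 0.06, so the numbers were not taken to pair samples. Leaving out samples in turn changed the sign of single probes near 0, with ranges of −0.0747 to 0.0012 for Col14a1 (positive without moR-21 sample 3), −0.0578 to 0.0041 for the dimmer Col18a1 probe (positive without control sample 1), −0.149 to 0.0252 for a Col3a1 probe (positive without control sample 3), −0.0173 to 0.0659 for Col4a5 (negative without control sample 2), −0.0952 to 0.0017 for a Col6a1 probe (positive without control sample 2) and −0.0431 to 0.0418 for the brightest Col6a1 probe (positive without control sample 1 or moR-21 sample 2). The last was also positive with median scaling (0.0892), cyclic loess (0.0646) and array B alone (0.0152). The cause was not tested.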
